A study of Mus musculus with 36 samples.

Results

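The genes described here encode the enzymes that copy, write and remove 5-methylcytosine in DNA, together with their closest cofactors, in fetal gonads and primordial germ cells (PGCs) of mice exposed to intrauterine hyperglycemia (IUHG) and of their controls. The set holds 9 genes named by symbol, which are Dnmt1, Uhrf1, Dnmt3a, Dnmt3b, Dnmt3l, Tet1, Tet2, Tet3 and Tdg. All 9 were found, among 57126 genes in the PGC tables and 56262 in the gonad tables. RNA-seq covered 36 libraries in 12 groups of 3 replicates. The 6 gonad libraries came from female fetuses at E13.5, and the 30 PGC libraries came from E12.5, where the labels give sex as not determined, and from E13.5 and E16.5, where the sexes were kept apart. All fetuses were labelled WT, and the PGCs came from fetuses sired by Oct4-EGFP males, in which EGFP marks germ cells for sorting. In the IUHG groups the ICR dams had received streptozotocin (STZ), a beta cell toxin, at 120 mg/kg intraperitoneally on day 3.5 of pregnancy, and were kept where blood glucose passed 14 mM on day 6.5. The study's methods describe no injection for control dams, so STZ and hyperglycemia cannot be told apart in these libraries. Each library pooled several fetuses, and by the study's methods only the PGC libraries were made from amplified cDNA.

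DNMT1 copies methylation onto the new strand at replication, and UHRF1 brings it to hemimethylated CpG sites. DNMT3A and DNMT3B methylate sites anew, with DNMT3L as a cofactor that has no activity of its own, while the TET enzymes oxidise 5-methylcytosine and TDG excises the oxidised base for repair. PGCs lose most of their methylation before and during colonisation of the gonad, and male germ cells regain it before birth whereas oocytes regain it after birth.

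Marker genes were read to check the labels. The summed level of 6 germ cell markers was 1678 to 9715 TPM (a share of the library's transcripts) in the 30 PGC libraries, with Dppa3, Dazl or Dnd1 the most abundant. In the PGCs the 4 pregranulosa markers summed to at most 36.8 TPM and the 3 Sertoli markers to at most 10.8 TPM. The 4 blood markers reached 344, 188 and 162 TPM in E16.5 male controls against 181, 96.7 and 49.5 in E16.5 male IUHG PGCs, with Hba-a1 the most abundant, and the 6 interstitial and Leydig markers gave 76.5, 44.4 and 24.7 against 19.7, 24.6 and 15.0 TPM, with Cyp11a1 the most abundant. There the Sertoli markers were also lower after IUHG without overlap, at 9.47, 9.90 and 10.2 against 7.26, 6.37 and 5.10 TPM, and the meiotic entry and Y-linked sums were higher, at 348, 335 and 338 against 384, 371 and 398 and at 98.8, 82.0 and 78.1 against 116, 123 and 117 TPM. Their part in the E16.5 male results was not tested. Gonads hold many cell types, with germ cell marker sums of 532, 424 and 451 TPM in controls and 715, 663 and 609 TPM after IUHG, so fewer cells of a type and less RNA per cell cannot be told apart in them.

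A few libraries stood apart. Gonad control 1 had a summed level of 4 Y-linked genes of 51.3 TPM, which was 0 in the other gonad libraries, and a Sertoli marker sum of 204 TPM against 8.23 to 10.8 TPM in the others, although all were labelled female. E13.5 female IUHG library 3 correlated with its replicates at Pearson r of 0.922 and 0.927 across genes, whereas the other pair in the group gave 0.977. It also held 16531 genes at 1 TPM or more against 15289 and 14524. E16.5 female IUHG libraries 1 and 2 correlated at 0.902, the lowest value within a group. Library 3 of that group had a blood marker sum of 164 TPM, against 1.61 and 5.02 in the other two and 2.95, 17.1 and 3.58 in controls. Aligned sequence came to 3.89 to 4.95 gigabases per gonad library and 3.25 to 8.32 per PGC library. Read counts were not used here, so the counting error of a single gene is unknown.

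The balance among the 9 genes differed with stage and sex, as the plot of TPM by group shows. In control PGCs at E12.5 the 9 genes summed to 128 TPM, and Dnmt1 made up 50.1% of that sum. At E13.5 Dnmt1 still led by mean in both sexes, with 41.0% of 153 TPM in females and 36.9% of 190.2 TPM in males. Uhrf1 came next, and in E13.5 female control 2 it was the higher, at 53.8 against 44.6 TPM. At E16.5 the sexes had separate leaders. In female PGCs Uhrf1 gave 59.3% of 177 TPM, whereas in male PGCs Dnmt3l gave 65.4% and Dnmt3a 27.3% of 1093 TPM. On coverage, a scale explained below, the E16.5 male control means were 404 for Dnmt3l, 44.0 for Dnmt3a and 41.7 for Dnmt1. The Dnmt3a share thus depends on the scale. Control gonads held Dnmt1 at 33.9% and Uhrf1 at 30.1% of 422 TPM, and also the 2 TET genes that PGCs scarcely expressed at E12.5, with Tet3 at a mean of 24.6 and Tet2 at 19.9 TPM. Because the gonad and PGC libraries were made in different ways, their levels stand side by side and no test was run between them.

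**Figure D1:**
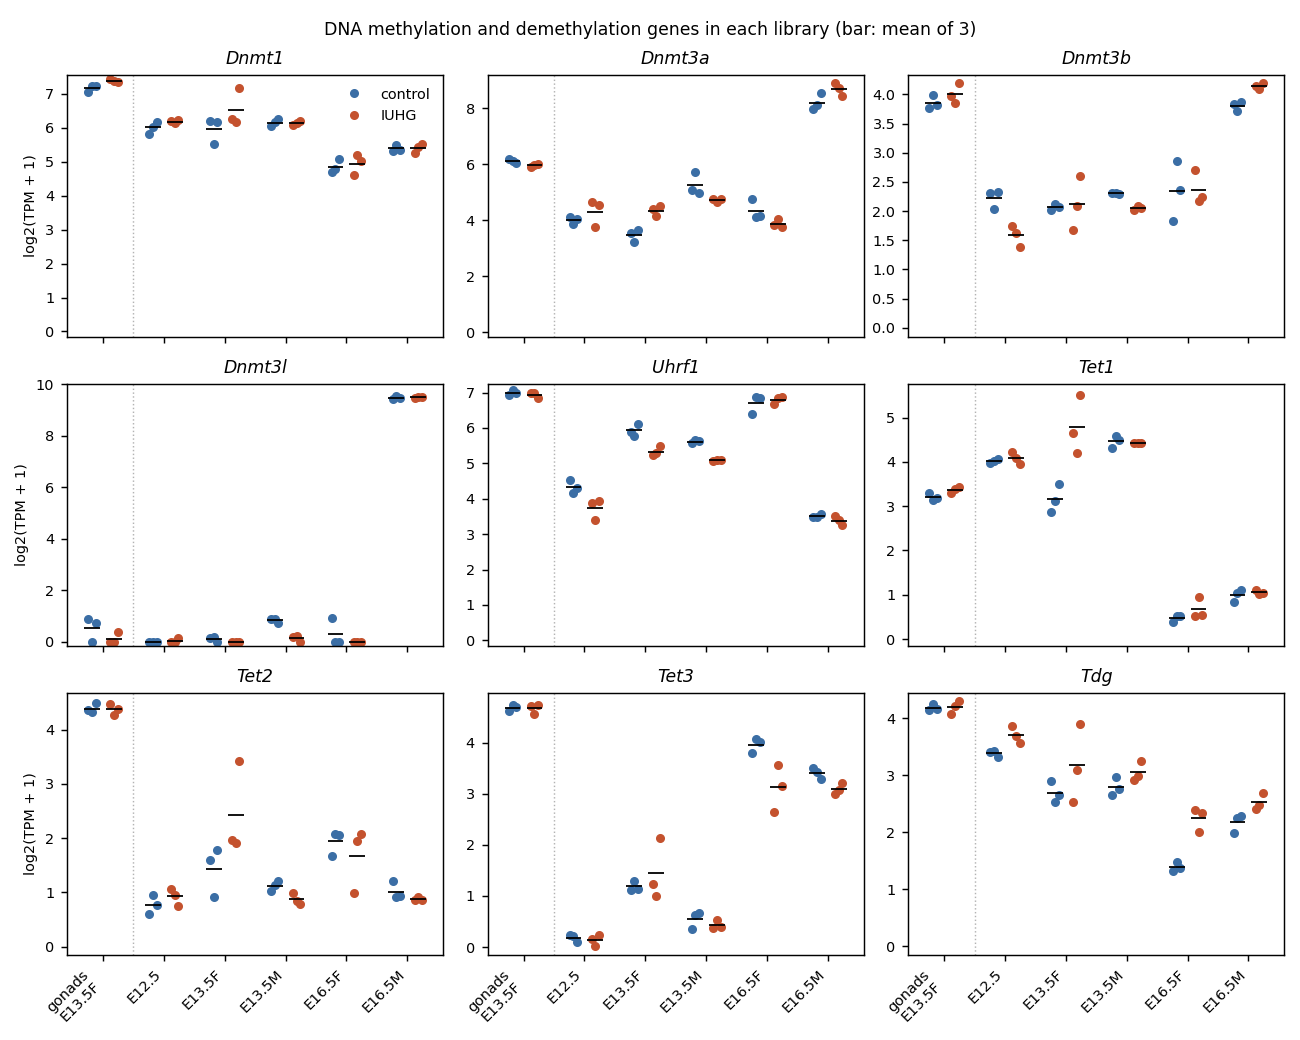
Level of each of the 9 genes as log2(TPM + 1), 1 point per library, with control and IUHG groups side by side for E13.5 female gonads and for PGCs by stage and sex; bars are means of 3 libraries. Dnmt3l lies at 9.4 or more in E16.5 male PGCs and below 1 elsewhere, and Tet1 is lowest at E16.5.

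Control PGCs of each sex were compared between E13.5 and E16.5, and the sexes were compared at each stage, with limma on log2(TPM + 1). A gene was called changed at an adjusted p under 0.01 with an absolute log2 difference above 1. This scale adds 1 to each TPM and therefore understates differences of genes at low levels. In females 1 member was called higher at E16.5 and 3 lower, of 8 tested, where 28.2% of all genes were called. In males 4 were called higher and 2 lower of 9, where 51% of all genes were called. Between the sexes at E13.5, 2 of 8 were called, both lower in females, against 29.8% of all genes. At E16.5 1 of 8 was called higher and 3 lower in females, against 50.9% of all genes. So many genes moved in these comparisons that the members' shares are to be read against those percentages. The median difference of all genes was 0.31 in females and 0.62 in males from E13.5 to E16.5, and 0.097 and 0.36 with median-of-ratios scaling. Between the sexes it was 0.28 at E13.5 and -0.11 at E16.5 (female minus male), and -0.0078 and -0.36 with that scaling. The members called between stages kept their direction and their side of the threshold under it.

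Dnmt1 and Uhrf1, the maintenance pair, are best known from dividing cells. RefSeq promoter windows of 300 bases (250 before to 50 after the start, GRCm38.p6) were found for 9 of 9 members. The windows of this pair are printed because both genes are classed among those of replicating cells, whose promoters often carry E2F sites. From E13.5 to E16.5 their courses parted in female controls, whereas both were lower at E16.5 in male controls. Of the several starts listed per gene, the one with the most CpG is shown. The Dnmt1 window lies on the minus strand at chr9:20952574-20952873 with 33 CpG, and the Uhrf1 window on the plus strand at chr17:56304063-56304362 with 33 CpG, against a median of 7 over 32851 windows. Capitals mark matches to the E2F letters TTTGGCGC or TTTCGCGC on either strand, 2 in Dnmt1 and 1 in Uhrf1; 0.813% of all windows hold such a match, and a match is no evidence of binding. The other listed starts hold 12 and 2 CpG for Dnmt1 and 12 for Uhrf1, with 0 such matches.
Dnmt1: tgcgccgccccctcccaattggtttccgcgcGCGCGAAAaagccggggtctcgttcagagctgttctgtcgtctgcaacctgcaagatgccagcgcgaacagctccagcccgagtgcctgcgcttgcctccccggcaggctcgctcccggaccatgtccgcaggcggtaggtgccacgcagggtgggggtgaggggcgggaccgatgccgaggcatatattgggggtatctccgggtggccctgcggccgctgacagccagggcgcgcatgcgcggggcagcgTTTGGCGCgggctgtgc
Uhrf1: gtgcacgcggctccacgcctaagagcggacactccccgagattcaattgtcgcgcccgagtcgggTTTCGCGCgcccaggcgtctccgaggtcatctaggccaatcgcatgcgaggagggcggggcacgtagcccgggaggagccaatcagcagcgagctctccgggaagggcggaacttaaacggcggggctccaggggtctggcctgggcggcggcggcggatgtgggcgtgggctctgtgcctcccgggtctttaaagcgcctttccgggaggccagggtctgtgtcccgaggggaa

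Dnmt1 was high at E12.5 and E13.5 and lower at E16.5. Its level was 55.8, 64.6 and 71.5 TPM in E12.5 controls. In female controls it was 72.2, 44.6 and 71.9 TPM at E13.5 and 25.2, 26.6 and 32.6 TPM at E16.5. Every E16.5 female library lay below every E13.5 female library, and the log2 difference was -1.11 (SE 0.20, limma adjusted p = 0.0014). That call did not hold without E13.5 female control 1, at -0.994 (adjusted p = 0.00997), or control 3, at -0.997 (adjusted p = 0.0086). Both values fell just short of the fold threshold. The call was also lost with no filter on low TPM, where the adjusted p was 0.014. In male controls Dnmt1 was 65.1, 70.4 and 74.96 TPM at E13.5 and 39.1, 44.4 and 39.9 TPM at E16.5. These groups did not overlap either, but the difference of -0.75 (SE 0.082, limma adjusted p = 3.8e-05) missed the fold threshold. It passed with median-of-ratios scaling, at -1.09 (adjusted p = 2.8e-06). At E16.5 the female libraries were all below the male ones, and the difference of -0.54 (SE 0.13, limma adjusted p = 0.0064) was also short of the fold threshold.

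Uhrf1 parted between the sexes. In female controls its level was 58.7, 53.8 and 68.8 TPM at E13.5 and 83.6, 116 and 115 TPM at E16.5. The later libraries were all higher, with a difference of 0.78 (SE 0.16, limma adjusted p = 0.0026) that did not reach the fold threshold. In male controls it was 46.2, 49.3 and 48.2 TPM at E13.5 and 10.3, 10.2 and 10.9 TPM at E16.5. Here every later library was lower, and Uhrf1 fell by 2.09 on the log2 scale (SE 0.078, adjusted p = 7.6e-08). At E16.5 it was therefore higher in female than in male controls by 3.19 (SE 0.15, limma adjusted p = 1.3e-06), without overlap. At E13.5 the sexes differed by 0.32 (SE 0.11, adjusted p = 0.026), which was not called and had the other sign, -0.013, with median-of-ratios scaling. The E12.5 level of 22.3, 16.8 and 18.8 TPM lay between those of both sexes at E16.5. By mean, Dnmt1 and Uhrf1 in female controls stood at 62.9 and 60.4 TPM at E13.5, and at 28.1 and 105 TPM at E16.5. In males the pair stood at 70.2 and 47.9 TPM, then at 41.2 and 10.5 TPM.

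Most S phase and division genes fell over the same days. Of 12 listed, 9 were called lower and 0 higher at E16.5 in females, with a median difference of -1.79 beside 0.31 for all genes, 28.2% of which were called. Ccnb1, a mitotic cyclin, had a mean of 317 TPM at E13.5 and 21.4 TPM at E16.5, and Mcm7, a subunit of the replicative helicase, had 134 and 29.6 TPM. In males 10 of 12 were called lower, with a median of -2.04 beside 0.62 for all genes, 51% of which were called. Rrm2, a subunit of ribonucleotide reductase, had 80.3 TPM at E13.5 and 6.18 at E16.5, and Cdk1 had 55.7 and 7.34. Of 10 maintenance partners, 2 were called lower in females, which were Dppa3 (1989 to 221 TPM) and Cdca7 (49.4 to 18.5 TPM), where 1760 of 17988 genes were called lower. DPPA3 moves UHRF1 out of the oocyte nucleus, and CDCA7 activates the remodeller HELLS. In males 7 were called lower and 1 higher, where 2594 of 20434 genes were called lower and 7832 higher. Hells itself had 195 TPM at E13.5 and 41.0 at E16.5, while Ehmt2, a histone H3 lysine methyltransferase, rose from 38.3 to 163 TPM.

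The de novo genes were high in males at E16.5. Dnmt3l, which stimulates DNMT3A and is needed for methylation in male germ cells, was near 0 everywhere but in those cells. Its promoter window is printed because no other member had so sharp a course, and that of Tet1 because its course ran the other way. Capitals mark CpG sites. The Dnmt3l window, on the plus strand at chr10:78042037-78042336, holds 6 CpG, under the median over all windows, and its other listed starts hold 4 and 3. The Tet1 window, on the minus strand at chr10:62887275-62887574, holds 17. Which of the listed starts PGCs use was not tested.
Dnmt3l: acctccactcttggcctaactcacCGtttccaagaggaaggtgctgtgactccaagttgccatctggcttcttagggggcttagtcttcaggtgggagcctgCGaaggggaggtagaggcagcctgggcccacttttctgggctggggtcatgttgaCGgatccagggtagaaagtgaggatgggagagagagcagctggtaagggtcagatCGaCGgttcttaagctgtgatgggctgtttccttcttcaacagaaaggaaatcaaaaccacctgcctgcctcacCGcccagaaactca
Tet1: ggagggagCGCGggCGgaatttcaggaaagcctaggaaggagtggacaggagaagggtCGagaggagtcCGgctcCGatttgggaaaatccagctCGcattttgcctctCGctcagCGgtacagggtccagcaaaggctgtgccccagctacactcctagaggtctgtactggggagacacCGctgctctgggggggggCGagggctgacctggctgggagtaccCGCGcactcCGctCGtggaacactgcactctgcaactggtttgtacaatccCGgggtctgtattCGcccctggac

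In control male PGCs Dnmt3l was 0.860, 0.851 and 0.672 TPM at E13.5 and 693, 747 and 703 TPM at E16.5. No library of either group came near the other, and the log2 difference was 8.64 (SE 0.078, limma adjusted p = 6.7e-10), while the ratio of the mean TPM was 899. Dnmt3l passed the filter by its E16.5 level alone, so the sizes of this difference and ratio rest on E13.5 levels under 1 TPM. Over the alternatives the difference ran from 8.11 to 9.65. In control female PGCs the levels were 0.109, 0.125 and 0 TPM at E13.5 and 0.902, 0 and 0 TPM at E16.5. A single library held all of it at E16.5, and the female course, under the filter of a mean of 1 TPM in at least 1 group, was not tested. Between the sexes at E16.5 the difference was -9.17 (SE 0.25, limma adjusted p = 1.7e-07), female minus male. There too Dnmt3l passed the filter by its male level alone, and the difference ran from -11.7 to -8.45 over the alternatives. At E12.5 Dnmt3l was listed at 0 in each of the 3 control libraries.

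Dnmt3a, the main de novo methyltransferase of male germ cells, was higher in males at both stages. Its level was 16.45, 13.6 and 15.7 TPM in E12.5 controls. In male controls it was 32.7, 52.4 and 30.8 TPM at E13.5 and 248, 275 and 373 TPM at E16.5. It rose there by 2.94 (SE 0.21, limma adjusted p = 3.2e-06) with no overlap. Female controls had 10.6, 8.37 and 11.6 TPM at E13.5 and 26.0, 16.3 and 16.7 TPM at E16.5. The later female libraries were all higher, with a difference of 0.87 (SE 0.23, limma adjusted p = 0.01) that was not called. Female minus male, the differences were -1.80 (SE 0.21, adjusted p = 6.4e-05) at E13.5 and -3.87 (SE 0.21, adjusted p = 2.7e-06) at E16.5, each without overlap.

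These Dnmt3a values differ between TPM and coverage, as the plot of both shows. The tables also give coverage, the mean depth over the transcribed bases, and for a gene with 1 transcript coverage and FPKM (fragments scaled for length and depth) keep a fixed ratio within a library. For Dnmt3a the ratio was 0.0832 to 0.215 of that fixed ratio in PGCs, against 0.973 to 1.00 for Tet1 and 0.476 to 0.520 for Dnmt3l. A ratio this low can arise where short transcripts carry much of a gene's TPM. Coverage scaled to the same total in each library was therefore used as an alternative, chosen after seeing the data. On it Dnmt3a was 4.40, 5.15 and 4.91 in E13.5 male controls and 45.3, 44.8 and 41.8 in E16.5 male controls. The male rise was as large, 2.95 (SE 0.088, adjusted p = 8.2e-08), and the E16.5 difference between the sexes was -3.26 (SE 0.13, adjusted p = 1.1e-06). The E13.5 difference between the sexes was -0.77 (SE 0.17, adjusted p = 0.0039), short of the fold threshold, and the female stage difference came to 0.47 (SE 0.24, adjusted p = 0.13). The tables hold gene totals only, so the part of single transcripts was not tested.

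**Figure D2:**
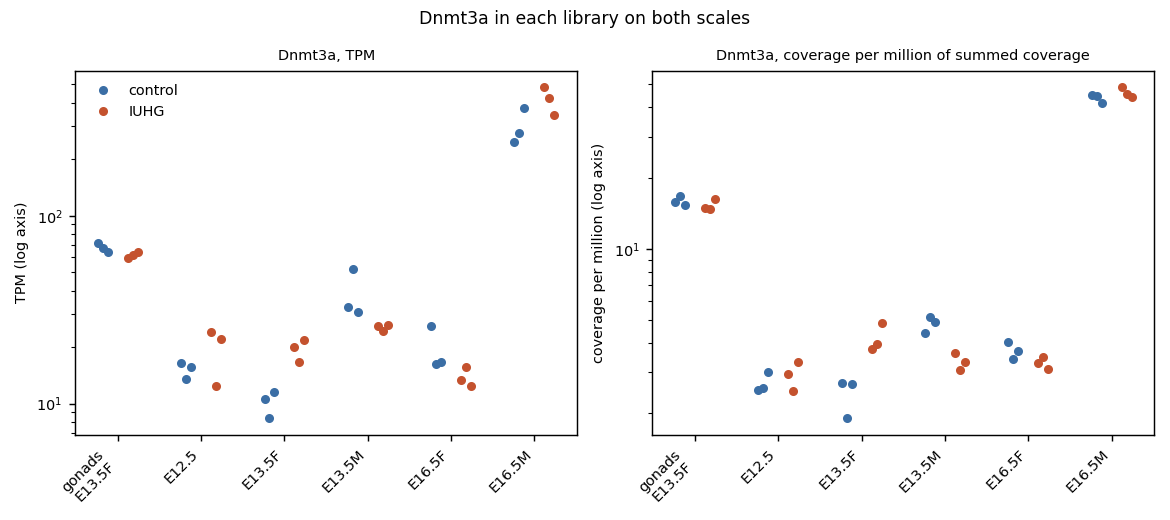
Dnmt3a in each library as TPM (left) and as coverage scaled to the same total (right), both on log axes, for control and IUHG groups. The E16.5 male groups have TPM means of 299 and 417, and coverage means of 44.0 and 46.1.

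Dnmt3b, which methylates repeats and the inactive X chromosome in other tissues, followed at a lower level. In male controls it was 3.99, 3.95 and 3.88 TPM at E13.5 and 13.3, 12.1 and 13.6 TPM at E16.5, a rise of 1.503 (SE 0.10, limma adjusted p = 2.4e-06) without overlap. Female controls had 3.07, 3.33 and 3.21 TPM at E13.5 and 2.57, 6.27 and 4.12 TPM at E16.5. The later female libraries spread on both sides of the earlier ones, and the difference was 0.28 (SE 0.31, adjusted p = 0.45). At E16.5 females were lower than males without overlap, with a difference of -1.46 (SE 0.26, adjusted p = 0.0015). That call was lost without E16.5 male control 1, where the adjusted p was 0.012, or control 3, where it was 0.013.

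Most partners of the de novo enzymes in male germ cells rose with them. Of 8 listed, 6 were called higher and 1 lower from E13.5 to E16.5 in males, where 7832 of 20434 genes were called higher and 2594 lower, with a median of 3.65 beside 0.62 for all genes. Spocd1, which joins the piRNA pathway to methylation, had 0.484, 0.370 and 0.414 TPM at E13.5 and 272, 269 and 253 TPM at E16.5. Piwil4, the nuclear piRNA protein MIWI2, had 6.49, 7.58 and 8.53 and 285, 260.3 and 249 TPM. Both were far higher in every E16.5 male library. The gene that fell was Setd2, which writes H3K36 trimethylation (6.98 to 2.51 TPM). In females 1 of 6 tested rose, Tex15 (50.03 to 181 TPM), where 28.2% of all genes were called, and Spocd1 was listed at 0 in E16.5 female controls. Female minus male at E16.5, 2 of 8 were called higher and 5 lower, with a median of -3.39 beside -0.11, where 50.9% of all genes were called. At E13.5 the counts were 2 higher (Tex15 and Kdm1b) and 1 lower (Morc1) of 6 tested, with a median of 0.17 beside 0.28, where 29.8% of all genes were called.

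Tet1 and Tet3 changed places between E13.5 and E16.5 in both sexes. Tet1, the main TET enzyme of early PGCs, was 14.7, 15.3 and 15.6 TPM in E12.5 controls. In female controls it was 6.35, 7.71 and 10.3 TPM at E13.5 and 0.306, 0.432 and 0.443 TPM at E16.5, and in male controls 18.9, 22.9 and 21.5 and 0.774, 1.06 and 1.16 TPM. All E16.5 libraries lay far below all E13.5 libraries. Tet1 fell by 2.69 on the log2 scale in females (SE 0.28, adjusted p = 4.0e-05) and by 3.47 in males (SE 0.13, adjusted p = 8.9e-08). At E13.5 it was lower in female than in male controls, with a difference of -1.30 (SE 0.17, limma adjusted p = 1.8e-04) and no overlap. At E16.5 both means were under the filter of 1 TPM, so the sexes were not tested.

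Tet3, the TET enzyme best known from the zygote, went the other way. Female controls had 1.16, 1.46 and 1.21 TPM at E13.5 and 13.0, 15.9 and 15.0 TPM at E16.5. Male controls had 0.277, 0.539 and 0.597 and 10.3, 9.68 and 8.76 TPM. It rose by 2.77 (SE 0.23, limma adjusted p = 1.0e-05) in females and by 2.85 (SE 0.15, limma adjusted p = 4.2e-07) in males, without overlap in either. The female libraries were all above the male ones at E16.5, but the difference of 0.56 (SE 0.15, adjusted p = 0.01) was not called. With median-of-ratios scaling it was 0.27 (limma adjusted p = 0.11). The difference at E13.5, 0.64 (SE 0.19, adjusted p = 0.017), was not called either. E12.5 controls held only 0.175, 0.170 and 0.0666 TPM. Tet2, best known from blood cells, was low, with 2.196, 3.22 and 3.19 TPM in E16.5 female and 1.32, 0.877 and 0.901 TPM in E16.5 male controls. These did not overlap, and their difference of 0.92 (SE 0.23, adjusted p = 0.0068) missed the fold threshold but was called without E16.5 female control 1, at 1.05 (adjusted p = 0.0052). The stage differences of Tet2 were 0.50 (SE 0.32, adjusted p = 0.21) in females and -0.11 (SE 0.15, adjusted p = 0.52) in males, neither called, with overlap.

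Among control PGCs Tdg, the glycosylase, was highest at E12.5, at 9.66, 9.82 and 9.05 TPM. In female controls it was 6.48, 4.77 and 5.29 TPM at E13.5 and 1.496, 1.77 and 1.59 TPM at E16.5. It was lower in each later library, with a difference of -1.31 (SE 0.26, limma adjusted p = 0.002), and the call was lost without E13.5 female control 1, where it was -1.20 (adjusted p = 0.017). Male controls had 5.33, 6.85 and 5.73 TPM at E13.5 and 2.95, 3.79 and 3.89 TPM at E16.5. They too did not overlap, but the difference of -0.62 (SE 0.15, adjusted p = 0.0041) missed the fold threshold. At E16.5 the female libraries were below the male ones, and the difference of -0.79 (SE 0.20, adjusted p = 0.0089) missed the fold threshold but was called with median-of-ratios scaling, at -1.004 (adjusted p = 0.0023).

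At E13.5 the sexes overlapped for Dnmt1, Tet2 and Tdg but not for Dnmt3b, and none of the 4 was called. Their differences, female minus male, were -0.19 for Dnmt1, -0.23 for Dnmt3b, 0.31 for Tet2 and -0.10 for Tdg. That of Dnmt1 changed sign without E13.5 female control 2, to 0.040. With median-of-ratios scaling the 4 were -0.52, -0.50, 0.11 and -0.39 in that order, none of them called. Dnmt3l was under the filter in both sexes at E13.5.

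Of 17 genes that act beside the TET enzymes or in excision and repair, 16 of which were tested in females, 2 were called higher and 2 lower in females from E13.5 to E16.5 (median -0.26, all genes 0.31, 28.2% of which were called), and 3 higher and 4 lower in males (median -0.14, all genes 0.62, 51% of which were called). These shares are no larger than those of all genes. In females Gadd45g, a stress-induced gene linked to demethylation, had 15.8 and 92.9 TPM, and Ung, the uracil glycosylase, 139 and 53.0 TPM. In males Ogt, which adds GlcNAc to TET partners, had 90.2 and 18.2 TPM, and Neil2, a glycosylase, 1.78 and 17.3 TPM. Between the sexes, female minus male, 5 were higher and 1 lower at E13.5 of 16 tested, where 29.8% of all genes were called, and 8 higher and 4 lower at E16.5 of 17, where 50.9% were, among them Mbd4 at 24.9 against 3.10 TPM. Genes of the methyl donor cycle gave 1 higher and 0 lower of 6 in females, and 1 higher and 2 lower in males, no larger a share than the 28.2% and 51% of all genes. Mat2a, which makes S-adenosylmethionine, fell in males from 146 to 17.7 TPM. In E16.5 female controls Mat2a stood at 328 TPM. Of 7 methyl-CpG readers, 6 of which were tested, 0 were called in females (limma, 2 at an unadjusted p under 0.05, as were 60.0% of all genes) and 2 higher and 1 lower in males, where 51% of all genes were called, the last being Mbd3 (297 to 113 TPM).

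**Figure D3:**
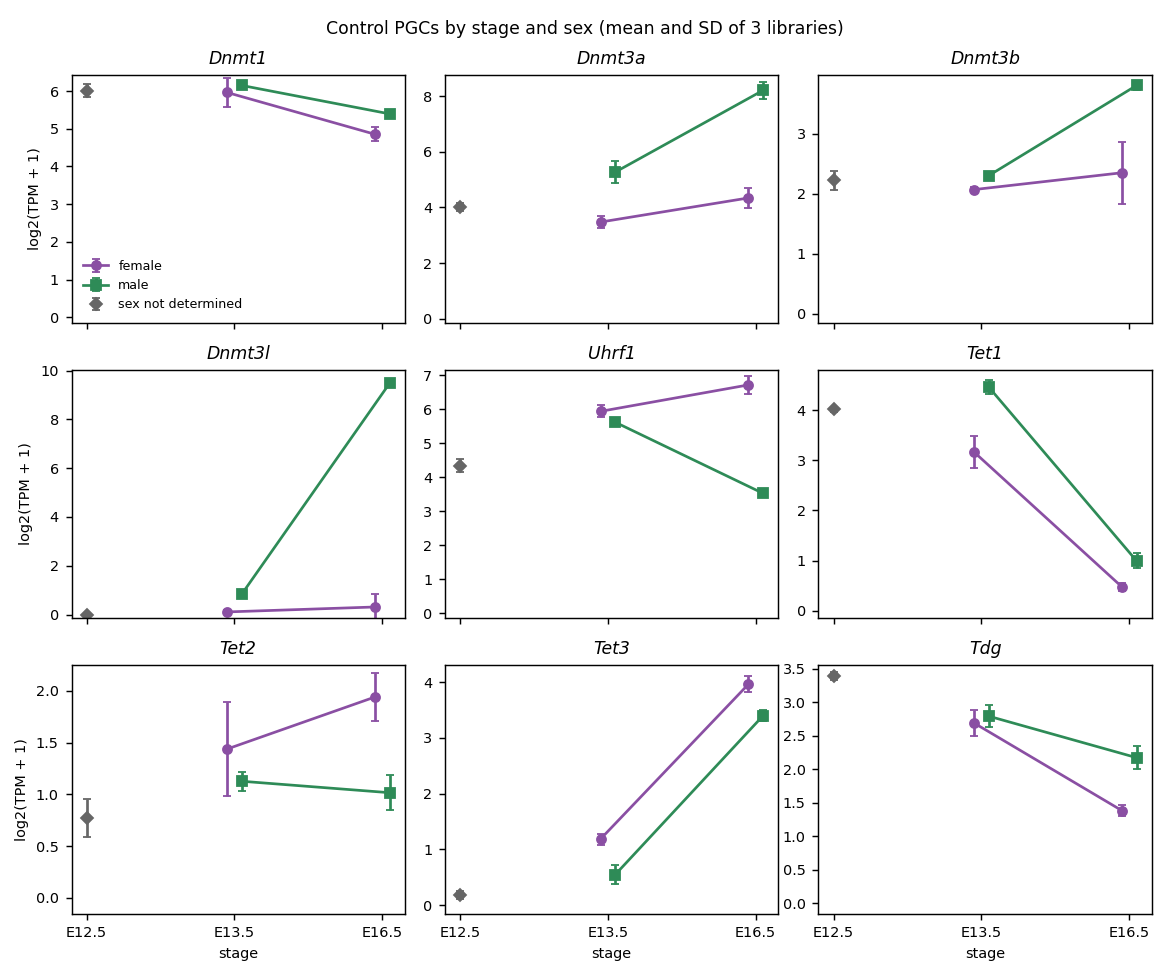
Mean and SD of 3 control libraries as log2(TPM + 1) against stage for each of the 9 genes, with female and male PGCs joined from E13.5 to E16.5 and the E12.5 group, whose sex is labelled as not determined, set apart. Uhrf1 and the de novo genes part between the sexes at E16.5, while Tet1 and Tet3 cross in both.

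The 10 PGC groups, IUHG included, were also put in order of mean TPM. Dnmt3l, Dnmt3a and Dnmt3b were each highest in the E16.5 male IUHG and control groups, and every library of both groups was above all others. The E16.5 male pair itself overlapped for Dnmt3l and Dnmt3a but not for Dnmt3b. Below them, the Dnmt3b groups from 4.32 TPM in E16.5 female controls to 3.15 in E13.5 male IUHG PGCs each overlapped the next, and E12.5 IUHG PGCs lay lowest at 2.02 TPM. Uhrf1 was ordered from 111 TPM in E16.5 female IUHG PGCs down to 9.48 in E16.5 male IUHG PGCs, and neighbours overlapped only among the E16.5 female groups and among the lowest 3 groups. Dnmt1 ran from 96.0 TPM in E13.5 female IUHG PGCs to 28.1 in E16.5 female controls, with 1 gap, between E16.5 male controls and E16.5 female IUHG PGCs. Tet1 was ordered from 28.6 TPM in E13.5 female IUHG PGCs to 0.393 in E16.5 female controls, and Tet3 from 14.6 in E16.5 female controls to 0.107 in E12.5 IUHG PGCs. Every neighbouring pair of Tet2 overlapped, from 5.13 TPM in E13.5 female IUHG PGCs to 0.716 in E12.5 controls. In E13.5 female IUHG PGCs library 3 held 9.73 TPM of Tet2 against 2.91 and 2.75, and 44.5 TPM of Tet1 against 24.1 and 17.3. The top places of both genes thus rest in part on that library. Tdg ran from 12.1 TPM in E12.5 IUHG PGCs to 1.62 in E16.5 female controls.

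Across the 30 PGC libraries, which share stages and sexes and so are not independent, Pearson r of log2(TPM + 1) was 0.97 between Dnmt3a and Dnmt3l and 0.92 between Dnmt3b and Dnmt3l. It was 0.92 between Dnmt1 and Tet1, -0.90 between Tet1 and Tet3, and -0.26 between Dnmt1 and Uhrf1. Among 25182 genes, those most like Dnmt1 by this measure were Dmrt1 (0.943), Plekhg3 (0.942) and Sin3a (0.940). For Uhrf1 they were Pomgnt2 (0.955), Hdgfl2 (0.945) and Zfp580 (0.943). The nearest to the de novo genes were Crybb3 (0.977), Mchr1 (0.976) and Phgdh (0.973) for Dnmt3a, Sec14l1 (0.961), Piwil4 (0.955) and Ppp1r15a (0.954) for Dnmt3b and Spocd1 (0.999), Gm10477 (0.998) and Gm3858 (0.998) for Dnmt3l. Tet1 was most like Lima1 (0.977), Sox2 (0.977) and Etv5 (0.975), Tet2 most like Pdpr (0.923), Zfp644 (0.913) and R3hdm1 (0.906) and Tet3 most like Pex11a (0.982), Ubn1 (0.980) and Rab36 (0.975). Tdg was most like Tdg-ps2 (0.940), B4galt1 (0.924) and Hspa4 (0.916), of which the first carries the name of a Tdg pseudogene; whether the tables share reads between the 2 was not tested.

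IUHG was then compared with control within each tissue, stage and sex, to ask whether exposure altered these enzymes. No member passed the thresholds in any of the 6 comparisons, which for PGCs were those above and for gonads an adjusted p under 0.05 with an absolute log2 difference of at least 1. In gonads limma called 0 of 8 tested members (1 at an unadjusted p under 0.05, as were 19.9% of genes) and 0.612% of all genes, and 2 members did not overlap between the groups, as 25.8% of all genes did not. In E12.5 PGCs it called 0 of 6 (2 at an unadjusted p under 0.05, as were 15.7% of genes) and 0.247% of genes, and 3 members and 22.4% of genes did not overlap. E13.5 female PGCs gave 0 of 8 (3 at an unadjusted p under 0.05, as were 23.4% of genes) and 0.514%, with 4 members and 33% of genes not overlapping. E13.5 male PGCs gave 0 of 7 (2 at an unadjusted p under 0.05, as were 43.9% of genes) and 3.92%, with 4 members and 47.1% of genes not overlapping. At E16.5 the counts were 0 of 7 in females (2 at an unadjusted p under 0.05, as were 22.8% of genes) and 0 of 9 in males (3 at an unadjusted p under 0.05, as were 23.9% of genes), against 0.736% and 0.201% of genes. There 3 members in females and 3 in males did not overlap, against 28.9% and 29.8% of genes. With 3 libraries against 3, an exact permutation test of 1 gene cannot give a p below 0.1. A p that misses the threshold does not show that the groups were alike.

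**Figure D4:**
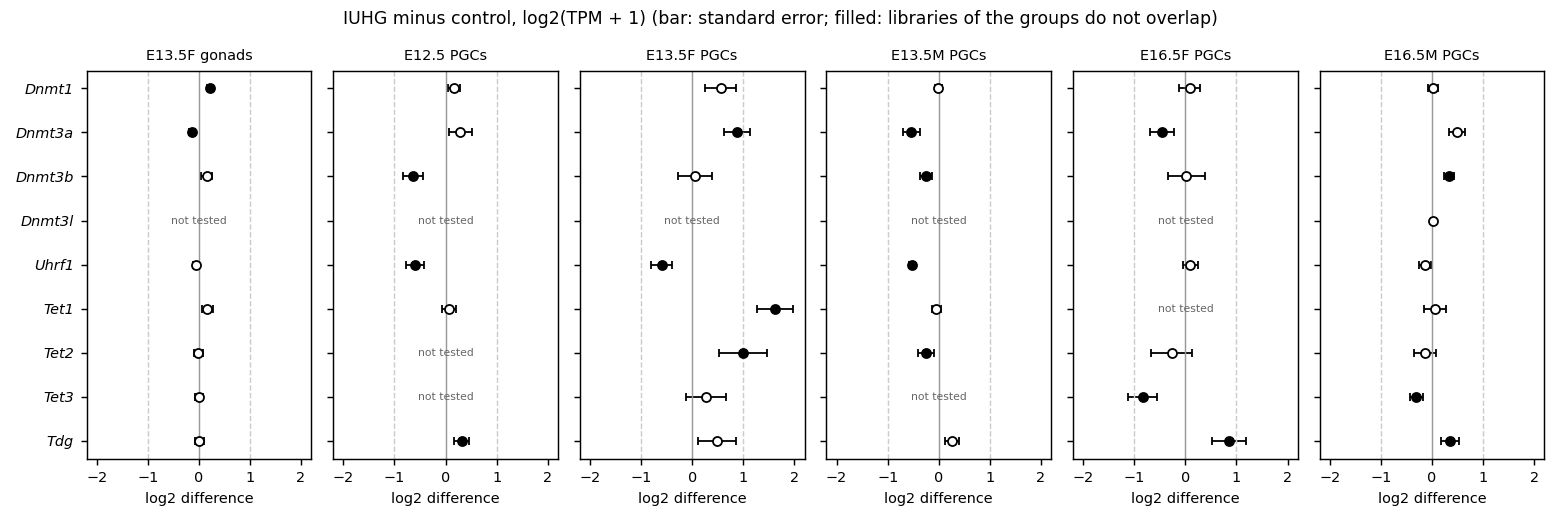
Log2 difference between IUHG and control of each member in each of the 6 comparisons, on log2(TPM + 1), with bars for 1 standard error. Filled points mark members whose libraries do not overlap between the groups; the largest difference is that of Tet1 in E13.5 female PGCs, 1.62, and none passed both thresholds.

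The largest difference of a member lay in E13.5 female PGCs. Tet1 was 6.35, 7.71 and 10.3 TPM in controls and 24.1, 17.3 and 44.5 TPM after IUHG. All 3 IUHG libraries were above all controls, with library 3 the highest, and the difference was 1.62 (SE 0.35, limma adjusted p = 0.045), past the fold threshold but not the p threshold. Without library 3 it was 1.25 (adjusted p = 0.014), also not called. With median-of-ratios scaling, which took the median of all genes from 0.14 to 0.0048, it was 1.46 (SE 0.27, adjusted p = 0.019). Over the alternatives tried its adjusted p ran from 6.9e-06 to 0.21. The fit of all PGC groups together, which pools their spread, gave the lowest of these and called Tet1. A fit with the replicate number as a block also called it, at 0.008, although those numbers do not pair the libraries. With the p above, Tet1 also passed at an adjusted p under 0.05, and at an unadjusted p under 0.01 with the fold threshold kept. Beside these, Tet1 was 18.9, 22.9 and 21.5 TPM in E13.5 male controls and 14.7, 15.3 and 15.6 TPM in E12.5 controls, which were not tested against IUHG females.

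The other members in that comparison differed less. Dnmt3a was 10.6, 8.37 and 11.6 TPM in controls and 20.1, 16.7 and 21.8 TPM after IUHG. All IUHG libraries were higher, at a difference of 0.88 (SE 0.25, adjusted p = 0.089), which was 0.80 (adjusted p = 0.042) without library 3 and 0.60 (SE 0.29, adjusted p = 0.24) on coverage. Uhrf1 was 58.7, 53.8 and 68.8 TPM in controls and 36.6, 38.0 and 43.6 TPM after IUHG. All IUHG libraries were lower, with a difference of -0.60 (SE 0.20, adjusted p = 0.12), and of -0.67 (adjusted p = 0.024) without library 3. Tet2 was 2.04, 0.896 and 2.45 TPM in controls and 2.91, 2.75 and 9.73 TPM after IUHG. The groups did not overlap, and the difference of 0.99 (SE 0.47, adjusted p = 0.23) came to 0.50 (adjusted p = 0.35) without library 3, the one high value. Dnmt1 was 75.1, 70.9 and 142 and Tdg 4.78, 7.55 and 13.9 TPM after IUHG, again with library 3 the highest, and both overlapped their controls. Their differences of 0.56 and 0.48 came to 0.24 and 0.12 without it. Those of Dnmt3b and Tet3, 0.058 and 0.27, changed sign without it, to -0.18 and -0.067, and that of Dnmt3b also with median-of-ratios scaling. Dnmt3l was under the filter and was not tested. The median over the tested members was 0.52, beside 0.14 for all genes. The difference of every tested member was lower without library 3, so this median depends in part on that library.

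Meiotic markers were lower in the same IUHG libraries. The 5 meiotic entry markers summed to 3901, 3763 and 3597 TPM in E13.5 female controls and 1054, 1065 and 969 TPM after IUHG, with Stra8 the most abundant and none at 0. Of the endothelial list, Pecam1, which germ cells also express, made up nearly the whole sum of 67.9, 50.8 and 69.5 TPM in controls and 89.0, 127 and 209 TPM after IUHG. The germ cell markers were higher, at 4674, 4971 and 4924 against 5616, 5900.1 and 6292 TPM, and so were the interstitial and Leydig markers, at 3.22, 2.44 and 2.62 against 3.46, 3.37 and 8.08 TPM. The part of these markers in the enzyme values was not tested. Of the 60 genes of the pathway lists, limma called 0 of 56 tested, and 23 had an unadjusted p under 0.05, beside 23.4% of all genes. The S phase and division genes had a median difference of 0.59 and the maintenance partners of 0.47, beside 0.14 for all genes.

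In E13.5 male PGCs, the comparison of the 6 with the most genes called at the settings of the report, Uhrf1 had the smallest p of the members. It was 46.2, 49.3 and 48.2 TPM in controls and 32.5, 32.9 and 33.4 TPM after IUHG. The groups were far apart for their spread, and the difference of -0.53 (SE 0.060, limma adjusted p = 1.9e-04) passed the p threshold but not the fold threshold. Dnmt3a was 32.7, 52.4 and 30.8 TPM in controls and 25.9, 24.4 and 26.2 TPM after IUHG, lower in every library. Its difference was -0.54 (SE 0.17, limma adjusted p = 0.031) in TPM and -0.43 (SE 0.11, adjusted p = 0.021) on coverage. Leaving out single libraries moved the TPM value between -0.68 and -0.31, with adjusted p up to 0.086. Dnmt3b was 3.99, 3.95 and 3.88 against 3.05, 3.25 and 3.16 TPM, also lower without overlap, at -0.25 (SE 0.12, adjusted p = 0.13). Dnmt3l was 0.860, 0.851 and 0.672 against 0.151, 0.169 and 0 TPM. Its groups did not overlap, but both means were under 1 TPM, so it was not tested. Tet2 was 1.04, 1.21 and 1.31 TPM in controls and 0.993, 0.796 and 0.726 TPM after IUHG, at -0.25 (SE 0.16, adjusted p = 0.26). Its groups did not overlap, but it passed the filter by its control level alone, so nothing is read from it. Dnmt1, Tet1 and Tdg overlapped, with differences of -0.0098, -0.046 and 0.25. The sign of Dnmt1 changed with median-of-ratios scaling and without control 3 or IUHG 1, to at most 0.039, and that of Tet1 without control 2, to 0.012. Tet3 was under the filter, at 0.277, 0.539 and 0.597 TPM in controls and 0.302, 0.443 and 0.314 TPM after IUHG, and was not tested.

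Some partners of the de novo enzymes fell in the same comparison. Of 6 tested, 2 were called lower and 0 higher, where 3.92% of all genes were called, with a median of -0.25 beside -0.023 for all genes. Morc1, which silences transposons in male germ cells, was 22.6, 25.1 and 25.5 TPM in controls and 8.65, 9.46 and 11.9 TPM after IUHG, -1.22 (SE 0.11, adjusted p = 6.3e-05). Piwil4 was 6.49, 7.58 and 8.53 and 3.90, 1.89 and 2.69 TPM, -1.18 (SE 0.19, adjusted p = 0.0014). Both were lower in each IUHG library. Of 16 tested genes of oxidation, excision and repair, Gadd45a rose by 1.03 (SE 0.15, adjusted p = 9.5e-04) and Neil2 fell, at -1.003 (SE 0.20, adjusted p = 0.0046). Neil2 had means of 1.78 TPM in controls and 0.383 TPM after IUHG. It passed the filter by its control level alone and barely passed the fold threshold, so nothing is read from its call. The male germ markers were lower too, as Nanos2, Piwil4 and Tdrd9 summed to 36.6, 41.6 and 41.5 TPM in controls and 10.2, 5.19 and 7.66 TPM after IUHG, with Nanos2 the most abundant. Piwil4 is in both lists. The 6 germ cell markers were lower, at 9033, 9598 and 9715 against 7914, 7875 and 8174 TPM, and the meiotic entry markers were higher, at 194, 213 and 212 against 358, 316 and 317, as was the endothelial list, mostly Pecam1, at 46.6, 50.9 and 52.3 against 73.1, 76.2 and 83.5 TPM. The Y-linked sum was 151, 183 and 167 against 118, 119.6 and 116 TPM. Somatic markers were lower as well, without overlap. The interstitial and Leydig markers summed to 19.7, 16.1 and 18.7 TPM in controls and 2.197, 3.83 and 1.88 after IUHG, the pregranulosa markers to 14.5, 18.8 and 16.8 and 7.74, 7.72 and 6.86, and the Sertoli markers to 10.8, 9.72 and 9.58 and 7.51, 8.50 and 6.22 TPM. The part of the germ or somatic markers in the enzyme values was not tested.

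At E16.5 the female comparison centred on Tet3 and Tdg. Tet3 was 13.0, 15.9 and 15.0 TPM in controls and 5.28, 10.8 and 7.92 TPM after IUHG, and Tdg 1.496, 1.77 and 1.59 and 4.25, 3.01 and 4.03 TPM. All IUHG libraries were below all controls for Tet3 and above them for Tdg. The differences were -0.84 (SE 0.28, limma adjusted p = 0.12) and 0.86 (SE 0.33, limma adjusted p = 0.17), and neither was called. Without IUHG library 1 they were -0.60 (adjusted p = 0.19) and 0.78 (adjusted p = 0.23). Dnmt3a was 26.0, 16.3 and 16.7 against 13.3, 15.6 and 12.4 TPM, lower in all IUHG libraries at -0.46 (SE 0.24, adjusted p = 0.28). Leaving out single libraries moved this value between -0.57 and -0.25. On coverage, where the groups overlapped, it was -0.14 (SE 0.28, adjusted p = 0.8). Uhrf1 and Dnmt1 overlapped, with differences of 0.094 and 0.083, which changed sign without control 1 (-0.060) and without IUHG 2 (-0.051). Dnmt3b and Tet2 overlapped too, at 0.018 and -0.27, and both changed sign without IUHG library 1, Tet2 to 0.067, and Dnmt3b also with median-of-ratios scaling and without control 1, to -0.24. Tet1 and Dnmt3l were under the filter and were not tested. Tet1 was 0.306, 0.432 and 0.443 TPM in controls and 0.424, 0.930 and 0.459 TPM after IUHG.

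The pathway gene with the largest fall in the E16.5 female comparison was Dppa3. It was 253, 227 and 184 TPM in controls and 14.5, 2.53 and 9.81 TPM after IUHG. No IUHG library came near a control, and the difference was -4.72 (SE 0.45, limma adjusted p = 0.0011). Gadd45g was 74.6, 118 and 86.5 TPM in controls and 21.5, 35.6 and 25.4 TPM after IUHG, also without overlap, at -1.72 (SE 0.22, adjusted p = 0.0042). These were the 2 genes called of 56 tested over the 6 lists, where 0.736% of all genes were called. At an unadjusted p under 0.05 (limma) there were 22 of the 56, beside 22.8% of all genes. Dppa3 is also 1 of the 6 germ cell markers, whose sum was 2026, 1759 and 1754 TPM in controls and 1943, 1678 and 1905 TPM after IUHG, with Dazl the most abundant. The meiotic markers summed to 7157, 6678 and 6917 TPM in controls and 8923, 7480.1 and 9246 TPM after IUHG. The male germ markers, mostly Tdrd9, were lower, at 79.6, 109 and 109.7 against 39.7, 49.8 and 42.9 TPM, as were the Sertoli markers, at 3.61, 4.63 and 2.09 against 0, 1.46 and 1.27, and the interstitial and Leydig markers were higher, at 10.6, 7.502 and 11.0 against 13.1, 13.49 and 14.1 TPM. Their part in the enzyme values was not tested.

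In E16.5 male PGCs, the cells that express the de novo genes most, Dnmt3l did not differ beyond the spread. It was 693, 747 and 703 TPM in controls and 715, 722 and 734 TPM after IUHG. The groups overlapped, and the difference was 0.020 (SE 0.049, limma adjusted p = 0.84), which changed sign with median-of-ratios scaling and without control 1 (-0.0014). Dnmt3b was 13.3, 12.1 and 13.6 TPM in controls and 16.6, 16.0 and 17.3 TPM after IUHG, higher in all IUHG libraries by 0.33 (SE 0.10, adjusted p = 0.092). Dnmt3a was 248, 275 and 373 TPM in controls and 484, 423 and 343 TPM after IUHG. The lowest IUHG library lay under the highest control, at a difference of 0.49 (SE 0.16, adjusted p = 0.1). On coverage the libraries were 45.3, 44.8 and 41.8 against 48.7, 45.6 and 44.1, and that difference shrank to 0.067 (SE 0.076, adjusted p = 0.63).

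Of the remaining genes at that stage, Tet3 was 10.3, 9.68 and 8.76 TPM in male controls and 6.95, 7.39 and 8.24 TPM after IUHG, and Tdg 2.95, 3.79 and 3.89 and 4.32, 4.59 and 5.44 TPM. As in females, Tet3 was lower and Tdg higher in every IUHG library, at -0.31 (SE 0.13, adjusted p = 0.18) and 0.35 (SE 0.17, adjusted p = 0.24), not called. On coverage the Tet3 groups overlapped, at 8.84, 8.25 and 7.59 against 6.46, 7.07 and 8.07, with a difference of -0.17 (SE 0.13, adjusted p = 0.45). Uhrf1, Tet1, Tet2 and Dnmt1 overlapped, with differences of -0.13 for Uhrf1, 0.060 for Tet1, -0.14 for Tet2 and 0.014 for Dnmt1. That of Dnmt1 changed sign with median-of-ratios scaling and without control 1, control 3 or IUHG 3, down to -0.050, and that of Tet1 without control 1, to -0.024. Tet1 passed the filter by its IUHG mean of 1.08 TPM alone, and Tet2 by its control mean of 1.03 TPM alone. Limma called 0 of 59 tested genes of the 6 lists, and 14 had an unadjusted p under 0.05, beside 23.9% of all genes.

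At E12.5, the earliest stage, the members that did not overlap were Dnmt3b, Uhrf1 and Tdg. Dnmt3b was 3.96, 3.12 and 4.00 TPM in controls and 2.34, 2.097 and 1.62 TPM after IUHG. Uhrf1 was 22.3, 16.8 and 18.8 and 13.6, 9.61 and 14.2 TPM. Tdg was 9.66, 9.82 and 9.05 and 13.6, 11.9 and 10.8 TPM. Dnmt3b and Uhrf1 were lower in every IUHG library, at -0.64 (SE 0.20, limma adjusted p = 0.17) and -0.60 (SE 0.18, limma adjusted p = 0.14), and Tdg was higher, at 0.31 (SE 0.15, adjusted p = 0.34), with none called. Dnmt1, Dnmt3a and Tet1 overlapped at 0.17, 0.29 and 0.070, the last of which was -0.00059 without IUHG 1, and Dnmt3l, Tet2 and Tet3 were under the filter. Marker sums also differed without overlap between controls and IUHG, at 7694, 8373 and 8108 against 6829, 7237 and 7636 TPM for germ cells, 174, 190.0 and 179.9 against 165, 153 and 154 for meiotic entry, 2.99, 2.02 and 3.01 against 0.626, 0.236 and 0.158 for Sertoli, 4.48, 3.64 and 4.86 against 1.98, 0.473 and 2.45 for pregranulosa, 3.39, 5.96 and 4.64 against 1.52, 2.13 and 0.981 for interstitial and Leydig and 132, 129 and 122 against 165, 153 and 146 for the endothelial list, mostly Pecam1. The labels give no sex for these fetuses, and the Y-linked sum was 210.1, 194 and 212 TPM in controls and 148, 129.6 and 154 TPM after IUHG. The part of sex or of any of these cell types was not tested. Limma called 0 of 55 tested list genes, with 9 at an unadjusted p under 0.05, beside 15.7% of all genes.

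In the female gonads differences were small. Dnmt1 was 132, 149 and 148 TPM in controls and 171, 167 and 161 TPM after IUHG, higher in all IUHG libraries, by 0.22 (SE 0.058, limma adjusted p = 0.088). Without control 1 this was 0.17 (adjusted p = 0.15). Germ cell markers were likewise higher in all IUHG gonads, as given above, and blood markers were lower in all of them, at 7996, 6284 and 7441 TPM in controls and 5292, 4485 and 4943 TPM after IUHG. The part of either in the Dnmt1 value was not tested. Dnmt3a was 71.6, 67.7 and 64.4 TPM in controls and 59.4, 62.0 and 64.1 TPM after IUHG, lower in every IUHG library, at -0.13 (SE 0.060, adjusted p = 0.27), or -0.057 (SE 0.070, adjusted p = 0.7) on coverage, where the groups overlapped. Without control 1 the TPM difference of Dnmt3a was -0.094 (limma adjusted p = 0.47). Uhrf1, Dnmt3b and the TET genes overlapped, with differences of -0.058 for Uhrf1, 0.15 for Dnmt3b, 0.16 for Tet1, -0.0097 for Tet2 and -0.0076 for Tet3. Those of Tet2 and Tet3 changed sign on leaving out single libraries, Tet2 without control 3 or IUHG 2 (up to 0.043) and Tet3 without control 2 or IUHG 2 (up to 0.047). Tdg overlapped at 0.011 and changed sign with median-of-ratios scaling, on coverage and without control 1, control 3 or IUHG 3, down to -0.040. Dnmt3l was under the filter, at 0.830, 0 and 0.657 TPM in controls and 0, 0 and 0.299 TPM after IUHG. Limma called 0 of 58 tested list genes, and 26 had an unadjusted p under 0.05, beside 19.9% of all genes, with a median of 0.16 for the S phase and division genes beside 0.0074 for all genes.

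Set side by side, the PGC comparisons use separate controls, and their log2 differences were as follows. Uhrf1 gave -0.60 at E12.5, -0.60 in E13.5 females, -0.53 in E13.5 males, 0.094 in E16.5 females and -0.13 in E16.5 males, and Tdg gave 0.31 at E12.5, 0.48 in E13.5 females, 0.25 in E13.5 males, 0.86 in E16.5 females and 0.35 in E16.5 males. For Dnmt3a they were 0.29 at E12.5, 0.88 in E13.5 females, -0.54 in E13.5 males, -0.46 in E16.5 females and 0.49 in E16.5 males. On coverage, in the same order, those of Dnmt3a were 0.078, 0.60, -0.43, -0.14 and 0.067. Uhrf1 was lower after IUHG without overlap in the E12.5 and both E13.5 comparisons and overlapped in both at E16.5. Tdg was higher after IUHG on average in each of the 5, without overlap at E12.5 and in both sexes at E16.5.

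Whether an IUHG effect differed between sexes or stages was tested as an interaction, called at an adjusted p under 0.01 with no fold threshold. At E13.5 the sex interaction (female effect minus male effect) called 1 of 8 members, Dnmt3a, against 3.2% of all genes. Its difference between effects was 1.42 (SE 0.28, limma adjusted p = 0.0083), from an effect of 0.88 in females and -0.54 in males. The IUHG libraries were all above their controls in females and all below them in males. The call rested on the scale and on single libraries, as on coverage it was 1.03 (SE 0.25, adjusted p = 0.026), and it was lost on leaving out any of the 12 libraries but E13.5 female IUHG 2 or 3, where the values over the 12 ran from 1.19 to 1.56 with adjusted p up to 0.03. The scaling took the median of all genes in this test from 0.16 to -0.012. Tet1 had a larger difference, 1.66 (SE 0.38, adjusted p = 0.017), not called. It was called in the fit of all PGC groups, at an adjusted p of 7.3e-04, at the looser p thresholds, with median-of-ratios scaling, at 1.45 (adjusted p = 0.0059), without E13.5 female IUHG 2, at 1.96 (adjusted p = 0.0038), and without IUHG 3, at 1.30 (adjusted p = 0.0031). Of the list genes, Morc1, Cdca7 and Ccnb1 were called, each more positive in females, with Morc1 at 2.204 (SE 0.32, adjusted p = 0.0012).

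Of the remaining interactions, fitted separately, only that over stages in males called members, which were Dnmt3b and Dnmt3l. The sex interaction at E16.5 called 0 of 9 members (1 at an unadjusted p under 0.05, as were 19.4% of genes, limma) against 1.18% of all genes, and the stage interaction in females (E16.5 effect minus E13.5 effect) called 0 of 8 (4 at an unadjusted p under 0.05, as were 22.5% of genes, limma) against 1.93%. Dnmt3a was nearest in both, at -0.94 (SE 0.28, adjusted p = 0.082) and -1.34 (SE 0.34, adjusted p = 0.032), and on coverage at -0.20 (SE 0.17, adjusted p = 0.53) and -0.74 (SE 0.36, adjusted p = 0.24). Dppa3 was called in both, at -4.85 (SE 0.56, adjusted p = 8.7e-04) and -4.99 (SE 0.54, adjusted p = 8.1e-05). In males the stage interaction called 2 of 9 members against 8.29% of all genes. Nothing is read from the call of Dnmt3l, at 0.72 (SE 0.11, limma adjusted p = 8.4e-04). It passed the filter by its E16.5 level alone, where the groups overlapped, and the value rests on E13.5 levels under 1 TPM that were not tested by themselves. Over the alternatives that value ran from 0.47, on coverage, to 2.26, with a pseudocount of 0.1, so its size depends on the scale and on the constant added, and its adjusted p ran from 8.4e-04 to 0.13. Dnmt3b had 0.58 (SE 0.13, limma adjusted p = 0.0077), from effects of -0.25 at E13.5 and 0.33 at E16.5, each without overlap. The Dnmt3b call was lost on leaving out any single library, with values from 0.54 to 0.61 and adjusted p from 0.011 to 0.021. It was also lost with median-of-ratios scaling, at 0.49 (adjusted p = 0.024), and held on coverage, at 0.58 (limma adjusted p = 0.0047). The fit of all PGC groups together gave other calls. It called Dnmt3a and Tet1 in the female stage interaction, at -1.34 (adjusted p = 0.0026) and -1.43 (adjusted p = 0.0017). In the separate fit these had adjusted p of 0.032 and 0.1. Tet1 passed the filter there by its E13.5 levels alone, as its E16.5 female means were 0.393 and 0.604 TPM. Nothing is read from that call. Both male calls were lost in the fit of all PGC groups, at adjusted p of 0.13 for Dnmt3l and 0.36 for Dnmt3b. Of the 8 de novo partners 3 were called in that interaction, among them Morc1, at 1.70 (SE 0.14, adjusted p = 9.2e-06), and Piwil4, at 1.17 (SE 0.21, adjusted p = 0.0027). Morc1 was 184 TPM in E16.5 male controls and 259 TPM after IUHG.

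The remaining members were not called in the interactions, with these differences between effects. The sex interaction at E13.5 gave 0.57 for Dnmt1, 0.31 for Dnmt3b, -0.074 for Uhrf1, 1.25 for Tet2, 0.39 for Tet3 and 0.23 for Tdg, and that at E16.5 gave 0.069 for Dnmt1, -0.32 for Dnmt3b, -0.33 for Dnmt3l, 0.23 for Uhrf1, 0.13 for Tet1, -0.13 for Tet2, -0.53 for Tet3 and 0.50 for Tdg. Dnmt3l passed the filter at E16.5 by its male levels alone. Its value rested on a single female control library at 0.902 TPM, and ran from -0.48 to -0.020 on leaving out single libraries. Nothing is read from it. Tet1 passed at E16.5 by its male IUHG mean of 1.08 TPM alone, and Tet3 passed at E13.5 by its female levels alone. Nothing is read from those 2 values either. On leaving out single libraries the sign changed at E13.5 for Uhrf1 without female control 3 (0.022) and for Tdg without female IUHG 3 (-0.13). At E16.5 it changed for Dnmt1 without female control 1, female IUHG 2 or male IUHG 1 (down to -0.064), for Tet1 without female IUHG 2 (-0.0096) and for Tet2 without female IUHG 1 (0.21). The stage interaction in females gave -0.48 for Dnmt1, -0.040 for Dnmt3b, 0.69 for Uhrf1, -1.43 for Tet1, -1.26 for Tet2, -1.11 for Tet3 and 0.37 for Tdg, of which Dnmt3b changed sign with median-of-ratios scaling and without E13.5 IUHG 3, E16.5 control 2 or E16.5 IUHG 2 or 3 (up to 0.22). In males it gave 0.023 for Dnmt1, 1.03 for Dnmt3a, 0.39 for Uhrf1, 0.11 for Tet1, 0.11 for Tet2, -0.19 for Tet3 and 0.096 for Tdg, of which Dnmt1 and Tdg changed sign with median-of-ratios scaling. Dnmt1 also did so without E13.5 control 3, E13.5 IUHG 1, E16.5 control 1 or E16.5 IUHG 3 (down to -0.040), and Tdg without E16.5 control 1 (-0.0018). Tet3 passed the filter in the male stage interaction by its E16.5 levels alone, and nothing is read from its value. Dnmt3a in males, with an adjusted p of 0.02, came to 0.50 (SE 0.12, adjusted p = 0.013) on coverage and passed only at looser thresholds. Dnmt3l was under the filter in the sex interaction at E13.5 and in the female stage interaction.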

How the data were processed

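As deposited, the tables held gene values that the authors made with StringTie, as TPM, FPKM and coverage, of which the authors left only coverage unscaled. Gene IDs listed more than once were summed, and where IDs shared a symbol the one with the highest mean TPM was used. Genes whose mean reached 1 TPM in a compared group were tested on log2(TPM + 1) with limma 3.58.1 in R 4.3.3 (eBayes with a trend, two-sided), with Benjamini-Hochberg adjustment over all genes tested, after a trial on simulated libraries. Named genes were the 9 members in every comparison, of each of 6 lists (maintenance partners, de novo partners, oxidation and repair, readers, methyl donor, S phase) up to 2 called genes per direction with the largest difference, and the 3 genes most like each member. The members and lists were chosen with earlier results of these data known. Alternatives were median-of-ratios scaling, dropping the filter, adding 0.1 in place of 1, a replicate block, each library left out, other thresholds, 1 fit of all PGC groups and, chosen after seeing the data, coverage scaled to a common total. Read counts were not used. Promoter windows came from RefSeq (GRCm38.p6).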

Additional observations from a re-analysis of the deposited data

Results flagged for a closer look

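The IUHG effect on Dnmt3a differed between the sexes at E13.5 by 1.42 (SE 0.28, limma adjusted p = 0.0083). It was singled out by the test of the difference between the effects, which were 0.88 in females and -0.54 in males. On coverage the difference was 1.03 (SE 0.25, adjusted p = 0.026) and was not called. The call was also lost without the filter (adjusted p = 0.025), with the replicate number as a block (0.016) and on leaving out 10 of the 12 libraries in turn, and it held with median-of-ratios scaling, at 1.22 (SE 0.25, adjusted p = 0.0082).

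In male PGCs the effects at E16.5 and E13.5 differed for Dnmt3l by 0.72 (SE 0.11, limma adjusted p = 8.4e-04) and for Dnmt3b by 0.58 (SE 0.13, limma adjusted p = 0.0077). Both came from the same kind of test. Dnmt3l passed the filter by its E16.5 level alone, and its value, 0.47 to 2.26 over the alternatives, rests on E13.5 levels under 1 TPM that were not tested by themselves, so nothing is read from it. The Dnmt3b call was lost on leaving out any library, with the block (0.018) and with median-of-ratios scaling (0.024). It held on coverage, at 0.58 (SE 0.11, limma adjusted p = 0.0047). In the fit of all PGC groups both were lost, at adjusted p of 0.13 for Dnmt3l and 0.36 for Dnmt3b.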

How the results depend on the processing

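With the settings of the report, limma called 111 (gonads), 34 (E12.5), 85 (E13.5 females), 567 (E13.5 males), 138 (E16.5 females), 42 (E16.5 males), 5067 (female stages), 10426 (male stages), 4683 (the sexes at E13.5), 11225 (the sexes at E16.5), 557 (the E13.5 sex interaction), 284 (the E16.5 sex interaction), 397 (the female stage interaction) and 1800 (the male stage interaction) genes, and members as given there. Of 1755 alternative values of 112 member results, 1685 kept their direction and side of the threshold, 36 lost the call, 34 gained it and 0 reversed a called direction. Differences that were not called changed sign in 51 values of 25 results. The counts given below are only those that moved far from the counts above. Smaller changes are left out, such as 749 genes in the E13.5 sex interaction with median-of-ratios scaling.

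With no filter on low TPM, which adds genes near 0 to the test, 5 (gonads), 2 (E12.5), 1 (E13.5 females), 357 (E13.5 males), 10 (E16.5 females), 9 (E16.5 males), 344 (the E13.5 sex interaction) and 258 (the female stage interaction) genes were called, and 0 (the E13.5 sex interaction) members. At an adjusted p under 0.05 with no fold threshold, 449 (gonads), 217 (E12.5), 505 (E13.5 females), 4813 (E13.5 males), 1058 (E16.5 females), 1241 (E16.5 males), 9679 (female stages), 16629 (male stages), 10232 (the sexes at E13.5), 1718 (the E13.5 sex interaction), 1065 (the E16.5 sex interaction), 1271 (the female stage interaction) and 3743 (the male stage interaction) genes were called, and 1 (E13.5 females), 2 (E13.5 males), 4 (the sexes at E13.5), 8 (the sexes at E16.5), 2 (the E13.5 sex interaction), 1 (the female stage interaction) and 4 (the male stage interaction) members. In a fit of all 10 PGC groups, 64 (E12.5), 1358 (E13.5 females), 1659 (E16.5 females), 156 (E16.5 males), 1208 (the E13.5 sex interaction), 963 (the E16.5 sex interaction), 2607 (the female stage interaction) and 414 (the male stage interaction) genes were called, and 1 (E13.5 females), 2 (the E13.5 sex interaction), 2 (the female stage interaction) and 0 (the male stage interaction) members. At an unadjusted p under 0.01, 155 (E12.5), 1005 (E13.5 females), 910 (E16.5 females), 234 (E16.5 males), 2354 (the E13.5 sex interaction), 2130 (the E16.5 sex interaction), 2158 (the female stage interaction) and 3931 (the male stage interaction) genes were called, and 1 (E13.5 females), 2 (the E13.5 sex interaction), 1 (the E16.5 sex interaction), 1 (the female stage interaction) and 4 (the male stage interaction) members. With median-of-ratios scaling, 147 (E13.5 females) genes were called, and 2 (the E13.5 sex interaction) and 1 (the male stage interaction) members. On coverage, a scale chosen after seeing the data, 56 (E13.5 females) genes were called, and 1 (the sexes at E13.5) and 0 (the E13.5 sex interaction) members. With a pseudocount of 0.1, 87 (E16.5 females) genes were called. Why scaling, coverage or the pseudocount gave other counts was not tested.

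The replicate numbers do not pair the libraries (0 of 10 comparisons, with correlations of -0.085 to 0.13 between same-numbered libraries). With the number as a block nonetheless, 56 (gonads), 17 (E12.5), 216 (E13.5 females), 62 (E16.5 females), 20 (E16.5 males) and 161 (the E16.5 sex interaction) genes were called, and 1 (E13.5 females), 0 (the E13.5 sex interaction) and 1 (the male stage interaction) members.

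On leaving out each library in turn, the genes called ran over 38 to 110 (gonads), 6 to 34 (E12.5), 1 to 428 (E13.5 females), 11 to 118 (E16.5 females), 17 to 29 (E16.5 males), 228 to 1642 (the E13.5 sex interaction), 86 to 398 (the E16.5 sex interaction) and 196 to 771 (the female stage interaction). Members called ran over 2 to 4 (female stages), 3 to 5 (the sexes at E16.5), 0 to 2 (the E13.5 sex interaction) and 1 to 1 (the male stage interaction). Read counts were not used, so the counting error of a gene is unknown, and groups of 3 libraries limit every test.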
